A study of Mus musculus with 167 samples.

Results

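Sham lung and sham heart were compared as miRNA profiles of unirradiated organs. The rule took every library of a sham mouse from lung and from heart, which gave 46 of the 167 libraries of the series, 23 of each organ. The study followed mice after irradiation of the whole thorax and measured miRNAs in lung, heart, brain and blood fractions, with sham mice as controls. The question here was which miRNAs marked each organ at baseline and whether both mouse strains showed the same marks.

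The 8 C3H mice (C3Hf/Sed/Kam) were all female and had a sham exposure 4 months before collection. The 15 C57 mice (C57Bl/6) were 8 males and 7 females with a sham exposure 6 months before collection. Both strains were kept gnotobiotic and were young adults at exposure. Each mouse gave 1 lung and 1 heart library, so the organs were compared within the mouse. Strain cannot be told apart from month of collection, and in part from sex. Each title also carried a letter, A or B, of unstated meaning, with 4 C3H mice under each and 8 and 7 C57 mice. Whole homogenates were used, so that a lower level from fewer cells of a type cannot be told apart from less RNA per cell. The counts of each organ were deposited as their own table, and organ cannot be told apart from any run of processing.

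A mature miRNA guides a silencing complex to messenger RNAs through its seed, the stretch near its 5′ end that pairs with the target, and miRNAs that share a seed are grouped into families. Heart muscle is known for miR-1 and miR-133 and for the myomiRs miR-208a, miR-208b and miR-499, which lie in introns of myosin heavy chain genes. Airway and alveolar epithelia are known for the miR-200 family, which holds epithelial identity by repressing the ZEB repressors, and multiciliated cells for miR-34 and miR-449.

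The mature sequences of the miRNAs on which the results turn are shown 5′ to 3′ with the seed (bases 2 to 8) in capitals, from RefSeq on GRCm38.p6, which held 299 of the 347 miRNAs tested. The heart-marking set shows 2 myomiR seeds that differ only in their last base.
miR-208a-3p: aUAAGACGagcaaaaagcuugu
miR-208b-3p: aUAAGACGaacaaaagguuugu
miR-499-5p: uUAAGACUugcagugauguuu
miR-133b-3p: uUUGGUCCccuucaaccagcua
miR-149-5p: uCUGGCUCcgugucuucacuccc
miR-201-3p: uGAACAGUgccuuucuguguagg
miR-547-3p: cUUGGUACaucuuugagugag
The lung-marking set falls into the families of miR-200b (first 3), miR-200a (next 2) and miR-34 (next 3), then the miR-183 cluster, the miR-146 pair and a pair from the X chromosome.
miR-200b-3p: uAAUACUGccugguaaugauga
miR-200c-3p: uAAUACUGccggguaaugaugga
miR-429-3p: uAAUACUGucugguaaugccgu
miR-200a-3p: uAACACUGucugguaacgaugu
miR-141-3p: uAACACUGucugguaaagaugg
miR-34b-5p: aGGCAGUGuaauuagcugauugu
miR-449a-5p: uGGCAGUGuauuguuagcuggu
miR-449c-5p: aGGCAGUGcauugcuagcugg
miR-183-5p: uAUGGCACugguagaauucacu
miR-96-5p: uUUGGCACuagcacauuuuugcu
miR-182-5p: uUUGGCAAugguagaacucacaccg
miR-146a-5p: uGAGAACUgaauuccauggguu
miR-146b-5p: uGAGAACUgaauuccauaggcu
miR-1298-5p: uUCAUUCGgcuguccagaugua
miR-1264-3p: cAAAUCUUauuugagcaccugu
The last set holds miRNAs whose organ difference depended on the strain, and the 2 arms of the miR-582 hairpin.
miR-204-5p: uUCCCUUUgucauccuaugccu
miR-135a-5p: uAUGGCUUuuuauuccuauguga
miR-215-5p: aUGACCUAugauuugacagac
miR-582-5p: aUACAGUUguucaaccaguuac
miR-582-3p: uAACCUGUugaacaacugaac

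Some of these miRNAs lie in annotated genes on mm10. miR-208a-3p (chr14:54949072-54949093, minus strand) is in an intron of Myh6, miR-208b-3p (chr14:54975710-54975731, minus strand) in an intron of Myh7 and miR-499-5p (chr2:155622893-155622913, plus strand) in an intron of Myh7b, all myosin heavy chain genes. miR-200b-3p (chr4:156055685-156055706), miR-200a-3p (chr4:156054911-156054932) and miR-429-3p (chr4:156053916-156053937) sit together on the minus strand in an intron of Ttll10. miR-141-3p (chr6:124717917-124717938) and miR-200c-3p (chr6:124718324-124718346) are the other miR-200 locus, on the minus strand in an intron of Gm15884. miR-449a-5p (chr13:113037549-113037570, plus strand) is in an intron of Cdc20b. miR-1264-3p (chrX:147010655-147010676) and miR-1298-5p (chrX:147064918-147064939) are in introns of Htr2c, a serotonin receptor gene, on the plus strand. miR-204-5p (chr19:22750610-22750631, plus strand) is in an intron of Trpm3, and both arms of miR-582 (the 5p arm at chr13:109324753-109324774, plus strand) are in an intron of Pde4d. No annotated gene on the same strand held miR-201-3p (chrX:67988099-67988121, minus strand), miR-547-3p, miR-34b-5p, miR-146a-5p or the miR-183 cluster.

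The libraries held 1944992 to 4328330 miRNA counts each, with medians of 3686173 and 3439174 in C3H and C57 lung and of 3357617.5 and 3248804 in C3H and C57 heart. A lung library had counts for 531.4 ± 22.1 of 1915 miRNAs and a heart library for 499.8 ± 28.7 (SD, n = 23). The difference was 31.6 miRNAs, higher in lung in 20 of 23 mice (permutation test by sign flips, two-sided, p = 0.00012). With every library thinned to 1944992 counts it was 25.3 miRNAs (p = 2e-05). Within C57 it was 32.8 (permutation p = 0.00116, 15 mice), and 26.4 thinned (permutation p = 0.00064). Within C3H it was 29.4 (exact p = 0.0703, 8 mice), and 23.1 thinned (exact p = 0.0469). The C3H difference lay mainly in letter B, where lungs had 532 to 550 miRNAs and hearts 459 to 521. In letter A lungs had 532 to 550 and hearts 528 to 566, which overlapped.

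Some libraries stood apart. The heart libraries fell into separate levels by label within each strain: miR-208a-3p was at 13530 to 28320 RPM in C3H letter A and 1474 to 2126 RPM in letter B, and at 5921 to 19940 RPM in C57 males and 970.4 to 2386 RPM in C57 females. Of the 347 miRNAs tested, 139 (40.1%) did not overlap between the letters in C3H heart and 75 (21.6%) between the sexes in C57 heart, against 26 (7.49%) and 1 (0.288%) in lung. Of these heart miRNAs, 65 were in both lists with the same direction (C3H letter A with C57 males), which was 46.8% of the C3H list and 86.7% of the C57 list, and 0 had the opposite direction. In C57 heart 0 miRNAs separated the letters. Each letter there held both sexes, so a miRNA apart between the sexes could not separate the letters. Within C57 male hearts miR-378a-3p did, at 14798.5 to 19090.7 RPM in letter A and 8105 to 12242 RPM in letter B. Within C57 female hearts its letters overlapped. The part of the split by C3H letter and C57 sex in the organ and strain differences was not tested. The counts are therefore also given below within each side of it. Among C57 lungs, mouse 1049 had 1120 RPM and mouse 1052 had 119 RPM of miR-206-3p, a skeletal muscle miRNA whose median in C57 male lungs was 2.33 RPM, and mice 1049 and 1052 had the highest miR-21a-5p.

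**Figure D1:**
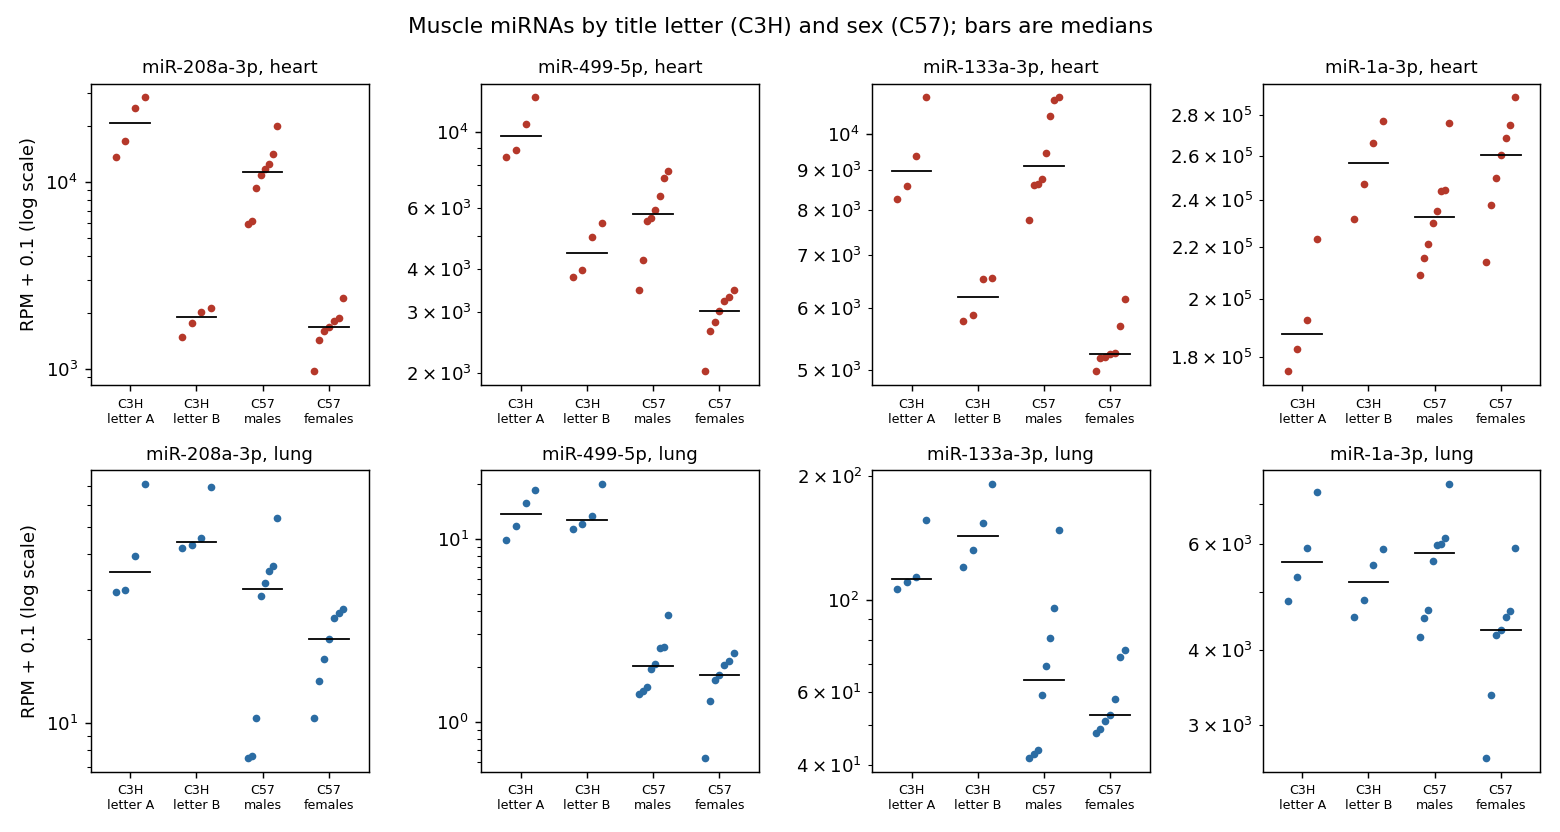
Each point is a library, with its RPM plus 0.1 on a log axis, in heart (top, red) and lung (bottom, blue), for C3H by title letter and C57 by sex; bars are medians. In heart, C3H letter A and C57 males lie above the other side for miR-208a-3p and miR-133a-3p, while in lung the sides overlap.

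Lung and heart differed in 153 of the 347 miRNAs tested on the mean of both strains, where a call needed an adjusted p under 0.05 and a log2 difference of at least 1.17 in size in the limma-voom fit with a term per mouse (44.1% called). Of these, 75 were higher in lung (21.6%) and 78 in heart (22.5%), with a median log2 difference of -0.03 over all 347 on the quantile-normalised scale. The balance between the organs depended on the scaling: with TMM it was 90 higher in lung and 65 in heart, and with library size alone 115 and 52, where the median of all miRNAs lay at 0.51. The numbers called in each direction are therefore relative to the quantile scale, and all 153 kept their sign under the 5 other scalings or count tools tried. In C3H alone 165 were called (47.6%), 86 higher in lung (24.8%) and 79 in heart (22.8%), and in C57 alone 153 (44.1%), 76 higher in lung (21.9%) and 77 in heart (22.2%). In all, 127 were called in both strains with 1 direction (36.6%), 63 higher in lung (18.2%) and 64 in heart (18.4%), and 0 in opposite directions. A further 38 were called in C3H alone and 26 in C57 alone, and 18 of these 64 passed the test of the strain difference itself. Within C3H letter A and C57 males 139 were called in both strains, and within C3H letter B and C57 females 119, 2 subsets chosen after seeing the data. On RPM, 83 miRNAs did not overlap between the 23 lung and the 23 heart libraries (23.9%), 58 of them higher in lung (16.7%) and 25 in heart (7.2%), while on the quantile-normalised scale there were 78, 38 higher in lung and 40 in heart.

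**Figure D2:**
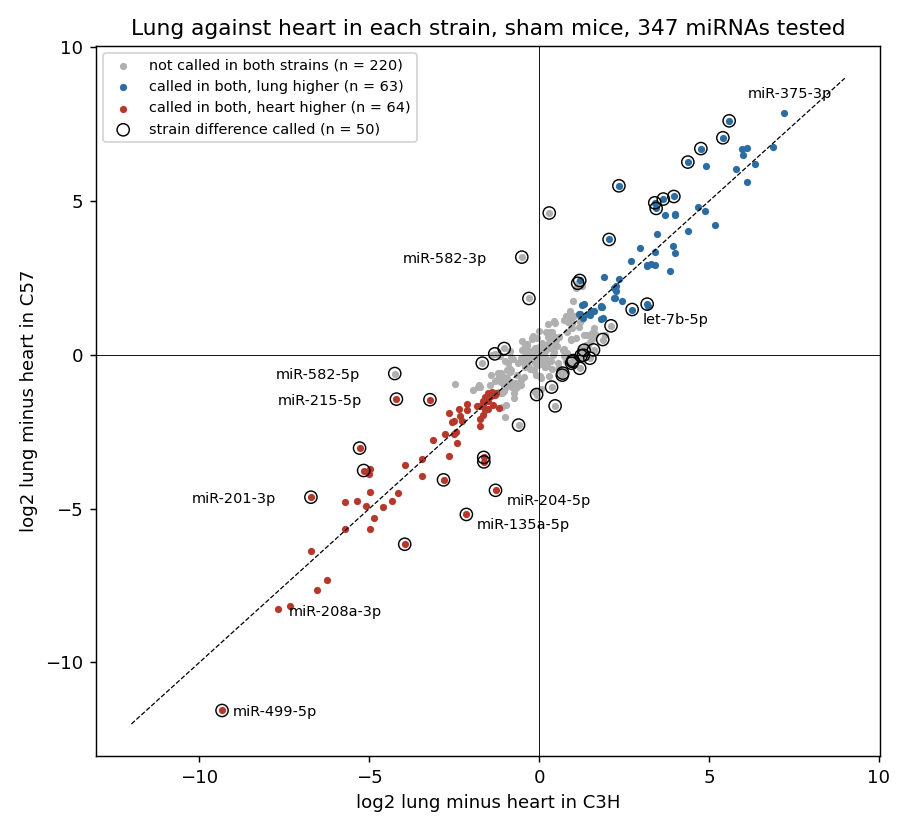
Each point is 1 of the 347 miRNAs tested, placed by its log2 lung minus heart difference in C3H (x axis) and C57 (y axis), positive for lung; the dashed line marks equal values. The 63 blue and 64 red points are called in both strains, and open circles mark the 50 called for a strain difference.

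The largest differences were in heart and were muscle miRNAs. All 11 tested members of the striated muscle list were higher in heart in both strains (18.4% over all miRNAs tested), with a median log2 difference of -6.55. Their summed level was 2731 to 8826 RPM in lung libraries and 216500 to 299000 RPM in heart libraries.

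miR-499-5p, the myomiR of Myh7b, was at 3784 to 12585 RPM (median 6940.5) in C3H heart and 2021 to 7705 RPM (median 3487) in C57 heart. In lung it was at 9.78 to 19.8 RPM (median 12.6) in C3H and 0.532 to 3.72 RPM (median 1.85) in C57, and the lungs of the strains did not overlap. Its log2 difference was -10.45 ± 0.15 (SE, 23 mice, adjusted p = 7.21e-30). miR-208a-3p, from Myh6, was at 1474 to 28318 RPM (median 7829.6) in C3H heart and 970.4 to 19938 RPM (median 5921) in C57 heart, against 29.3 to 71.2 RPM (median 42.5) and 7.41 to 53.9 RPM (median 23.6) in the lungs of C3H and C57. The organs were far apart although the heart libraries spread over the label split, and the log2 difference was -7.98 ± 0.29 (SE). It was -9.18 within C3H letter A and C57 males and -6.59 within C3H letter B and C57 females. Its seed partner miR-208b-3p, from Myh7, the slow myosin gene, differed less, by -3.69 ± 0.19, and overlapped between the organs. Reads of such close relatives may have been shared in counting.

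miR-1a-3p, which promotes muscle differentiation, took 23.8% ± 3.1 (SD, n = 23) of all heart counts. It was at 175321 to 276898 RPM (median 227358) in C3H heart and 208962 to 289279 RPM (median 243757) in C57 heart, and at 4544 to 7311 RPM (median 5414) and 2648 to 7539.5 RPM (median 4647) in the lungs. Every heart library was above every lung library, with a log2 difference of -4.77 ± 0.08 (SE, adjusted p = 1e-27). miR-133a-3p, its partner in the same transcripts, differed by -6.79 ± 0.09 and miR-133b-3p by -6.55 ± 0.22. Lung was not free of these miRNAs: it held 2.17% of the heart level of miR-1a-3p, 1.18% of miR-133a-3p, 0.371% of miR-208a-3p and 0.111% of miR-499-5p by mean RPM. miR-499-3p had 0 counts in all 23 lung libraries and was at least 8.6-fold higher in heart, taking a floor of 3 counts per library, and the list median was the same with it at that bound.

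Other heart-marking miRNAs were not from the muscle list. All 4 tested miR-378 members were higher in heart in both strains (18.4% over all miRNAs tested), with a median of -4.90. miR-378a-3p, which is made with the metabolic co-activator gene Ppargc1b, was at 9257 to 23607 RPM (median 12117) in C3H heart and 8105 to 24047 RPM (median 13746) in C57 heart, against 248 to 519 RPM (median 354) and 226 to 1267 RPM (median 399) in lung, a log2 difference of -5.68 ± 0.12. miR-149-5p, in an intron of Gpc1, differed by -5.32 ± 0.15, and was at 69.8 to 165 RPM (median 105) in C57 heart and 1.36 to 7.26 RPM (median 2.85) in C57 lung. From the X chromosome, miR-201-3p (-5.67 ± 0.19) and miR-547-3p (-4.45 ± 0.15) lie within 10 kb of each other and were both higher in every heart than in every lung library. let-7c-1-3p, the passenger arm of a let-7 hairpin, was also higher in heart (-3.77 ± 0.17), whereas let-7c-5p was higher in lung (1.83 in C3H and 1.18 in C57).

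Lung was marked by epithelial miRNAs. Of 12 tested members of the epithelial list 11 were higher in lung in both strains (18.2% over all miRNAs tested), and the median log2 difference was 6.07. miR-203-3p was called in C57 alone on the quantile scale. With TMM or with library size alone all 12 members were called in both strains. Their summed level was 14050 to 38920 RPM in lung libraries and 169.9 to 1382 RPM in heart libraries.

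miR-200a-3p was at 7547 to 13142 RPM (median 9716) in C3H lung and 5944 to 21251 RPM (median 17849.9) in C57 lung, and at 43.4 to 539.7 RPM (median 91.1) and 37.9 to 214 RPM (median 90.9) in the hearts. The lowest lung lay above the highest heart, with a log2 difference of 6.42 ± 0.22 (SE, 23 mice, adjusted p = 1.39e-20). The 5 main arms of the family had similar differences over both loci and both seeds: 6.60 for miR-141-3p, 6.33 for miR-429-3p, 6.28 for miR-200c-3p and 6.25 for miR-200b-3p. By mean RPM the heart held 0.841% of the lung level of miR-200a-3p, 0.784% of miR-141-3p, 0.837% of miR-200b-3p, 0.827% of miR-200c-3p and 0.81% of miR-429-3p. In the heart of C3H mouse 2075 miR-200a-3p reached 539.7 RPM, the highest heart value.

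miR-375-3p, a miRNA of endocrine cells, had the largest difference towards lung, 7.55 ± 0.21. It was at 154 to 259.7 RPM (median 207) in C3H lung and 132 to 444 RPM (median 281) in C57 lung, and at no more than 1.92 RPM in any heart. The pair from Htr2c was also higher in lung, miR-1298-5p by 6.83 ± 0.33 and miR-1264-3p by 5.92 ± 0.27. miR-1298-5p was at 46.7 to 99.7 RPM (median 80.4) in C3H lung and 7.26 to 122 RPM (median 82.9) in C57 lung, the lowest being mouse 1049. In heart it did not pass 6.22 RPM, with a median of 0 in C57.

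The ciliated-cell list was higher in lung in both strains for 6 of 6 tested members (median 5.03). miR-34c-5p was at 2814 to 4421 RPM (median 3545) in C3H lung and 5131 to 10652 RPM (median 7740.0) in C57 lung, against 50.7 to 141 RPM (median 72.3) and 22.9 to 85.5 RPM (median 36) in heart. The log2 difference was 6.24 ± 0.14, and that of miR-449a-5p, which has the seed of miR-34b-5p, was 5.74 ± 0.22. miR-34a-5p carries this seed too but lies at its own locus, and its log2 difference was -0.10. All 3 tested members of the miR-183 cluster, known from sensory epithelia, were higher in lung: miR-183-5p by 4.56, miR-96-5p by 4.36 and miR-182-5p by 4.11. Of the leukocyte list 2 of 8 tested members were higher in lung in both strains (18.2% over all miRNAs tested), with a list median of 0.43. These were miR-146b-5p by 4.30 ± 0.20 and miR-146a-5p by 3.13 ± 0.08. They share a seed and dampen innate immune signalling. The lungs of mice 1052 and 1049 were apart for miR-146b-5p, at 6266 and 3752 RPM against a median of 1323 RPM in C57 male lungs and at most 1064 RPM in C57 female lungs, and without these mice its log2 difference was 4.07. miR-150-5p, of lymphocytes, and miR-223-3p, of myeloid cells, had log2 differences of -0.67 and -1.04 on the mean of strains and were not called there (0.26 and -0.17 with library size alone, where the direction of miR-150-5p turned), and miR-142a-3p, of blood cells, had 1.05 and was called in C57 alone. On RPM the direction of miR-223-3p turned over the label split. It was higher in lung in 0 of 4 C3H letter A mice and 1 of 8 C57 males. In C3H letter B it was higher in lung in 3 of 4 mice, and in C57 females in 6 of 7. miR-10a-5p, from a Hox cluster, was higher in lung by 3.05 ± 0.13, whereas miR-10b-5p, from another Hox cluster, was higher in heart on the mean of strains (-1.54 ± 0.14) and in C3H but was not called in C57, nor on the mean with library size alone (-0.91).

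**Figure D3:**
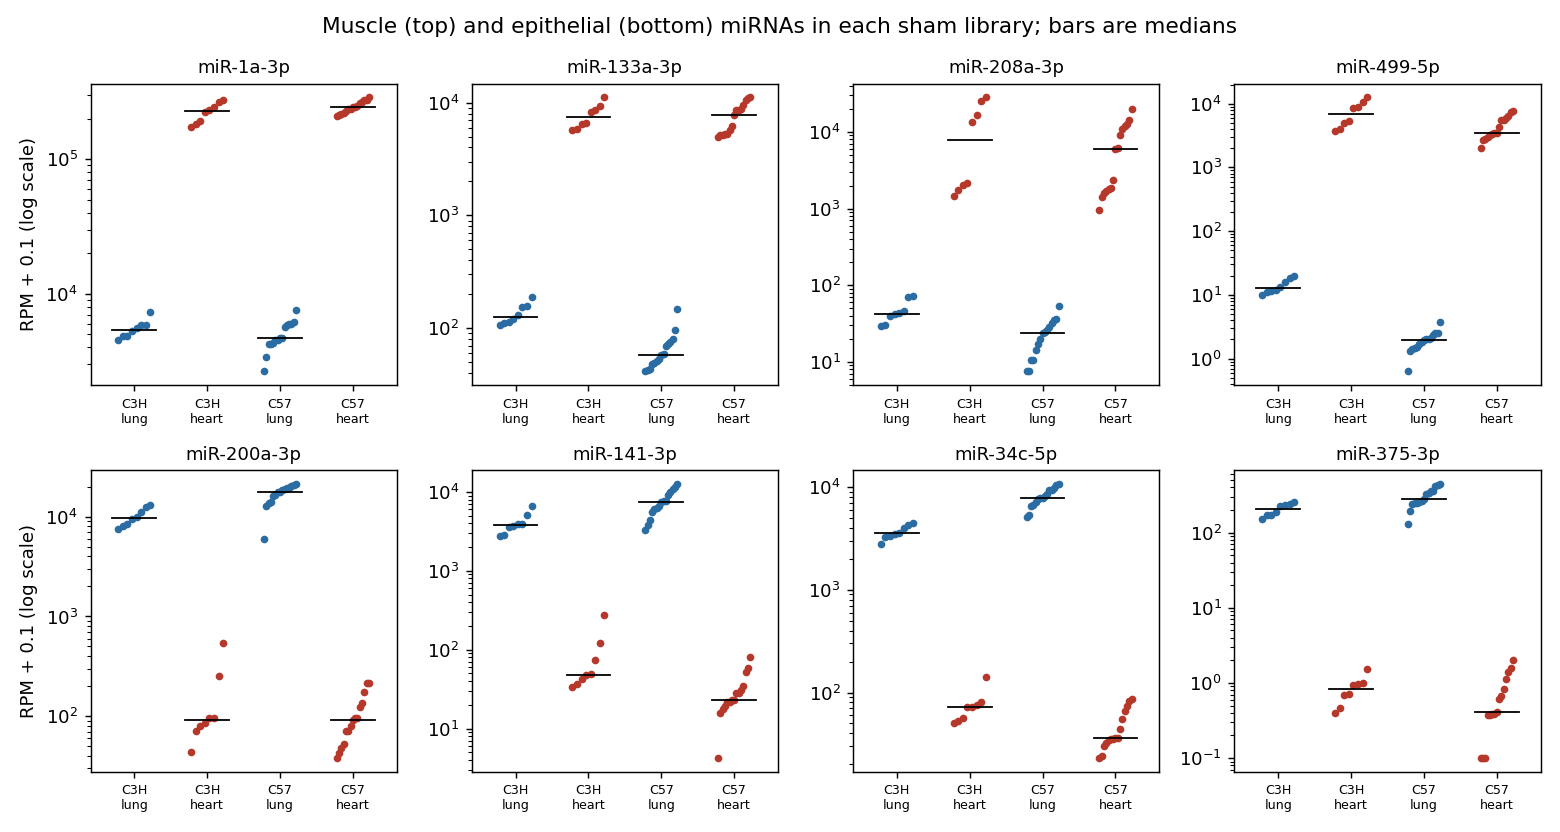
Each point is a library, with its RPM plus 0.1 on a log axis, for 4 muscle (top) and 4 epithelial (bottom) miRNAs in lung (blue) and heart (red) of each strain; bars are medians. No lung library overlaps a heart library in any of the 8 panels.

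Of the most abundant miRNAs several led both organs. miR-126a-3p, the endothelial miRNA of Egfl7, took 36.2% ± 5.5 of lung counts and 30.9% ± 2.4 of heart counts (SD, n = 23), and was higher in lung in 20 of 23 mice. It ranked first in 44 of 46 libraries, so quantile normalisation sets it to nearly the same value everywhere and its difference on that scale is not informative. With TMM the log2 difference was -0.11 and with library size alone 0.25, so that the direction depended on the scaling. miR-126a-5p, the other arm, was at -0.20 on the quantile scale and 0.28 with library size alone, and its direction also turned over the label split, from -0.76 in C3H letter A with C57 males (adjusted p = 9.52e-06) to 0.35 in C3H letter B with C57 females (adjusted p = 0.00372). The smooth muscle (4 tested) and fibroblast (6) lists and the miR-29 family (3) had 0 members called on the mean (44.1% over all miRNAs tested). Their median log2 differences were -0.41, -0.02 and -0.33 (0.08, 0.32 and -0.34 with library size alone). miR-143-3p, of smooth muscle, had 0.17 ± 0.13. Among the abundant miRNAs miR-21a-5p was higher in lung, by 1.81 ± 0.20, and by 1.59 without mice 1049 and 1052. It was at 17568 to 24624 RPM (median 21837) in C3H lung and 24169 to 236828 RPM (median 33777) in C57 lung, and at 6944 to 10188 RPM (median 8763) and 5051 to 9614 RPM (median 7515) in heart. The C57 maximum, 23.7% of the counts, was mouse 1052. miR-148a-3p was higher in heart (log2 difference -2.37 ± 0.11).

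Some other families had a share of calls near that of all miRNAs tested (18.2% in lung, 18.4% in heart). In the let-7 family 2 of 9 members, let-7b-5p (2.11 ± 0.11) and let-7c-5p, were higher in lung in both strains, and let-7a-5p had -0.20 and let-7f-5p 0.12 with the same seed. In the miR-30 family 2 of 9 arms were higher in lung (miR-30a-5p by 1.70, miR-30d-5p by 1.40) and 2 in heart (miR-30c-5p at -1.37, miR-30e-3p at -3.41). miR-103-3p and miR-107-3p, 23 bases each, differ by 1 substitution (G22C, counted from the 5′ end of miR-103-3p, with the base of miR-107-3p last). miR-103-3p was higher in lung by 1.51 ± 0.10 and miR-107-3p higher in heart (-1.47 ± 0.10), so these counts are uncertain where reads of so close a pair were split. miR-107-3p lost its call with TMM (-1.15) and with library size alone (-0.79), still higher in heart.

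All 6 tested erythrocyte miRNAs were called higher in heart on the mean and 4 of 6 in both strains, with a median of -2.40. Their summed level was 118 to 2187 RPM in lung libraries and 471 to 2812 RPM in heart libraries, so the ranges overlapped. By the study's methods the tissue for miRNA work was frozen after an infusion of PBS, and how far any blood still in the organs moved with these values was not tested. With TMM or with library size alone 4 of 6 were called on the mean and 2 of 6 in both strains. miR-144-3p was at 40.3 to 1121 RPM (median 199.6) in C3H heart and 24.5 to 198 RPM (median 56.2) in C3H lung. miR-451a (-1.41) was not called with TMM (-0.97), and in C3H letter B with C57 females it was at -0.50 (adjusted p = 0.196). On RPM its means lay the other way there, at 164 RPM in lung and 63.1 RPM in heart in C57 females (higher in lung in 6 of 7 mice) and 189 and 164 RPM in C3H letter B (2 of 4 mice). The paralogues miR-486a-5p (-2.55) and miR-486b-5p (-2.48) may share reads. Of 21 tested members of the Dlk1-Dio3 cluster, an imprinted miRNA cluster of chromosome 12, 9 were higher in heart in both strains (18.4% over all miRNAs tested) and 0 in lung, with a median of -1.25. These calls depended on the scaling: 4 were called in both strains with TMM and 0 with library size alone, where the median was -0.76.

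Among the neural list 3 of 7 tested members were higher in heart in both strains: miR-9-5p at -2.95, miR-9-3p at -1.29 and miR-128-3p at -2.97, and 2 of 7 with TMM or with library size alone (18.4% over all miRNAs tested on the quantile scale). Of 4 tested members of the liver and gut list 2, miR-122-5p (-2.03) and miR-215-5p (-2.82), were higher in heart in both strains, and 1 with library size alone. miR-192-5p and miR-194-5p, at -0.88 and 0.11, were not called. Those called were low in heart, at mean levels of 6.4 and 10.3 RPM. Of the miR-181 family miR-181a-5p (2.10) and miR-181b-5p (1.55) and, of a related pair, miR-222-3p (3.03) and miR-221-5p (1.71) were higher in lung in both strains, whereas miR-221-3p had 0.45.

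**Figure D4:**
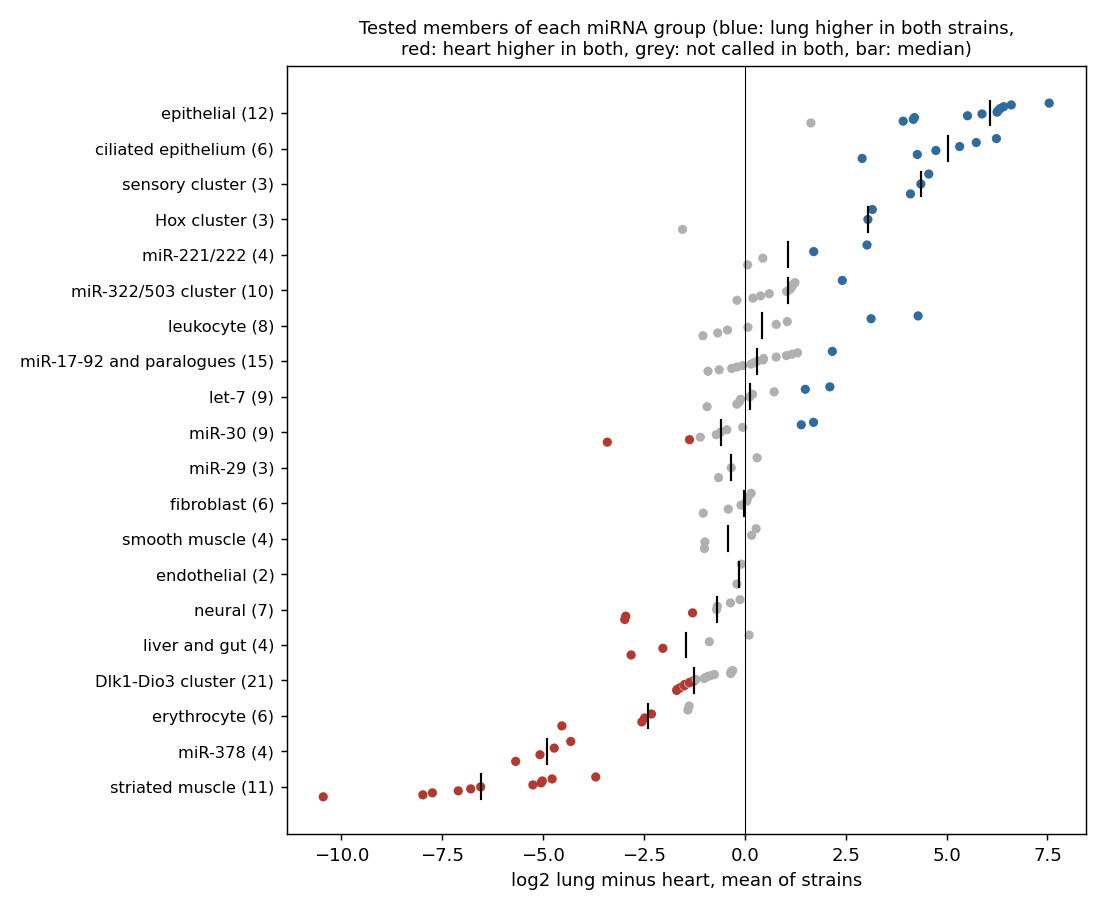
Each point is a tested miRNA at its log2 lung minus heart difference (mean of strains), by group, with the number tested in brackets; colour marks the call in both strains and the bar the group's median. The muscle and miR-378 members all lie on the heart side, at -3.69 and below, and the ciliated and miR-183 members all on the lung side.

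The calls were also counted by seed, locus and hairpin. Seeds could be grouped only for the 299 miRNAs with a mature sequence, and loci for the 273 of these with 1 locus. miR-133a-3p, for one, was not among these. Of 38 seeds carried by 2 or more of these miRNAs, 5 had every member higher in lung in both strains, 2 every member higher in heart and 2 had members in both directions. Of 28 loci with 2 or more precursors within 10 kb on 1 strand, 6 had every grouped member higher in lung, 1 every member higher in heart and 1 both directions. Of single miRNAs, 18.2% were called higher in lung and 18.4% higher in heart in both strains. Whether seeds or loci grouped the calls more than single miRNAs would was not tested. Both arms of a hairpin were tested for 87 hairpins. On the mean of strains both arms were called higher in lung for 12 and higher in heart for 12, and 1 arm alone was called for 21. Of single miRNAs, 21.6% were called higher in lung and 22.5% higher in heart on the mean. The arms were called in opposite directions on the mean for 1, miR-582, but in neither strain. In C3H its 3p arm was at -0.51 (not called) and its 5p arm at -4.25. In C57 they were at 3.18 and -0.60 (not called).

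The organ difference itself differed between the strains for 50 miRNAs (14.4% called; by the same limits, for C57 minus C3H), 24 of them more positive in C57 (6.92%) and 26 more positive in C3H (7.49%), and 25 of the 50 were called in both strains. The 12 with the smallest adjusted p follow by the organ in which the strains were apart. Across all 347 the 2 strains had Pearson's r = 0.936 and Spearman's rho = 0.899, a description across miRNAs that are not independent. Within C3H letter A and C57 males 27 were called, and within C3H letter B and C57 females 32. Without mice 1049 and 1052 there were 43, without C3H mouse 2075 there were 39 and without 2074 there were 57.

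Some of the 12 had more in C57 heart. miR-204-5p, of Trpm3, was at 10.6 to 49.5 RPM (median 19.8) in C3H heart and 42.6 to 100.3 RPM (median 59.5) in C57 heart, and at 6.62 to 16.2 RPM (median 12) and 1.27 to 10.6 RPM (median 4.55) in lung. The hearts of the strains overlapped in part. Its log2 lung minus heart difference was -1.28 in C3H and -4.40 in C57, a strain difference of -3.12 ± 0.26 (SE, adjusted p = 1.36e-09). With TMM or with library size alone it was called higher in heart on the mean but not in both strains. miR-135a-5p was at 5.2 to 11.9 RPM (median 8.28) in C3H heart and 61.8 to 185 RPM (median 106) in C57 heart, with no overlap, and the strain difference was -3.05 ± 0.44. let-7d-3p had a log2 lung minus heart difference of 0.47 in C3H and -1.66 in C57.

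Others had less in C57 heart. miR-582-3p was at 36.7 to 78.3 RPM (median 48.8) in C3H heart and 1.54 to 19.1 RPM (median 3.08) in C57 heart, which did not overlap, while the lungs of the strains did, at medians of 49.2 and 68.1 RPM. The strain difference was 3.69 ± 0.41 (SE, adjusted p = 2.2e-07). The other arm, miR-582-5p, was at 4.91 to 24.9 RPM (median 12.7) in C3H heart and 0 to 6.22 RPM (median 1.03) in C57 heart and had a strain difference of 3.64 ± 0.58. The 3p arm was higher in lung in C57 (3.18) and the 5p arm higher in heart in C3H (-4.25), and the strain differences of both arms had the same sign. miR-201-3p was at 16.2 to 62.9 RPM (median 28.3) in C3H heart and 1.72 to 8.06 RPM (median 3.96) in C57 heart. Its strain difference was 2.09 ± 0.39, but edgeR gave 0.99 (adjusted p = 0.59), and no lung library held more than 3 counts of it. miR-215-5p had a strain difference of 2.76 ± 0.41 with both organs apart. It was at 10.1 to 25 RPM (median 14.8) in C3H heart and 3.54 to 14.5 RPM (median 6.85) in C57 heart, and at 0.542 to 3.06 RPM (median 1.31) and 2.24 to 7.87 RPM (median 3.8) in lung, and the strains overlapped in both organs.

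For the ciliated-cell miR-34c-5p the strains were apart in lung, at 2814 to 4421 RPM (median 3545) in C3H and 5131 to 10652 RPM (median 7740.0) in C57, with no overlap. Its heart levels lay the other way, with medians of 72.3 RPM in C3H and 36 RPM in C57 and some overlap. Its strain difference was 1.65 ± 0.29 (SE, adjusted p = 0.00017). Of 6 tested ciliated-cell miRNAs 4 passed the test of the strain difference, larger towards lung in C57 (6.92% over all miRNAs tested in that direction). Without C3H mouse 2075 it was 3, as miR-449c-5p went from 1.69 (adjusted p = 0.0288) to 1.65 (adjusted p = 0.057). Without C57 mice 1049 and 1052 it was also 3, with miR-449c-5p at 1.45 (adjusted p = 0.0548). Of 12 epithelial miRNAs 3 passed in the same direction with and without mouse 2075, among them miR-141-3p (2.02). Of 3 miRNAs in the miR-183 cluster 3 passed, all close to the fold minimum, and without mouse 2075, whose heart was the highest for miR-183-5p, 1 did. miR-183-5p went from 1.19 to 1.02 (adjusted p = 0.0564) and miR-96-5p from 1.41 to 1.07 (adjusted p = 0.0343), under the fold minimum, while miR-182-5p went from 1.32 to 1.21 (adjusted p = 0.0328). Without C57 mice 1049 and 1052, 2 of the 3 passed, with miR-183-5p at 1.16, under the fold minimum. For miR-183-5p the strains were apart mainly in heart, where it was at 7.33 to 72.4 RPM (median 19.8) in C3H heart and 2.06 to 28 RPM (median 10.5) in C57 heart, and at medians of 537 and 713 RPM in lung. miR-205-5p, of basal cells, had a strain difference of 3.15, and 2.49 without mouse 2075. It was at 0.587 to 72.7 RPM (median 2.99) in C3H heart and 0 to 6.03 RPM (median 0.552) in C57 heart, and at 21.1 to 271 RPM (median 27.2) and 23.7 to 544 RPM (median 78.2) in lung, where mouse 2076 was the C3H maximum and mouse 1049 the C57 maximum. miR-499-5p had -9.33 in C3H and -11.56 in C57, and was the only 1 of 11 muscle miRNAs to pass (7.49% over all miRNAs tested in that direction). let-7b-5p had 2.74 in C3H and 1.48 in C57, and its strain difference (-1.26) fell under the fold minimum with TMM (-1.15). It was -0.82 in C3H letter A with C57 males (adjusted p = 0.119) and -1.64 in C3H letter B with C57 females. miR-503-3p (-1.26) and miR-467c-5p (-1.29) were close to the fold minimum.

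**Figure D5:**
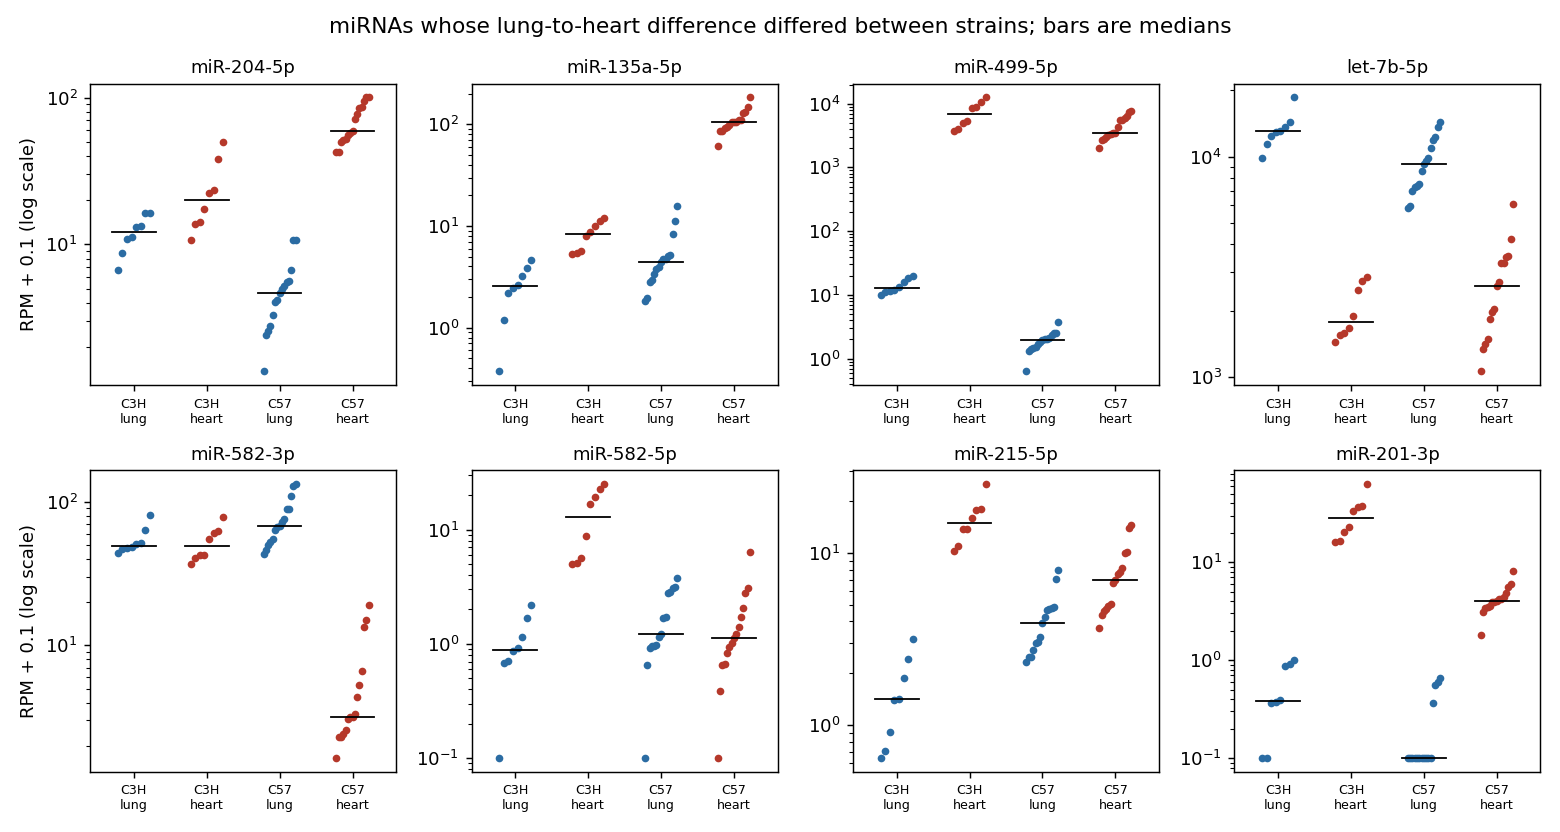
Each point is a library, with its RPM plus 0.1 on a log axis, in lung (blue) and heart (red) of each strain, for 8 of the miRNAs called for a strain difference; bars are medians. miR-135a-5p, miR-582-3p and miR-201-3p separate the hearts of the strains, and miR-499-5p the lungs.

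The same comparison in 24 libraries of irradiated mice (7 C3H and 5 C57, each with lung and heart) used none of the sham libraries; these mice had a single X-ray exposure of the thorax. Of the 153 sham calls 148 were tested there, 147 had the same sign and 118 were called, with 0 called in the opposite direction. On the mean of strains 134 of 351 were called there (38.2%). Of the 50 strain differences 50 had the same sign and 14 were called. The number called for the strain difference over all miRNAs in irradiated mice is given in the last section. Strain went together with month of collection in these mice too. miR-499-5p had -11.01 and miR-200a-3p 6.87, while miR-34c-5p was at 3.97 in place of 6.24.

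Set beside the other sham tissues of the same study, many of these miRNAs were higher in another tissue. Of the 63 miRNAs higher in lung in both strains, 36 had a lung median above the medians of brain, leukocytes (WBC) and red cells (RBC), and 25 had a higher median in brain. Of the 64 higher in heart, 30 were above all of these and 29 had a higher median in brain. miR-208a-3p had a median of 0 RPM in brain and both blood fractions. miR-1298-5p, lung-marking against heart, had a median of 372 RPM in brain and 80.7 in lung. miR-204-5p, heart-marking in both strains on the quantile scale but not with TMM, had 1535 RPM in brain. The tables were counted separately, so these medians are only set side by side.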

How the data were processed

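miRNA counts of whole lung and heart homogenates were used. The authors extracted RNA with QIAzol and a miRNEasy kit, prepared QIAseq libraries, sequenced them on a NextSeq 550 and aligned trimmed reads to mm10 miRNAs in BaseSpace, and deposited raw counts for 1915 miRNAs as 1 table per tissue. Whether molecular identifiers were collapsed, and how multi-mapping reads were split, is not given in the sources used here.

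RPM is the count divided by the library total and multiplied by 1e6. Counts were fitted with limma 3.58.1 (voom with quantile normalisation, the study's own approach) in R 4.3.3, after edgeR's expression filter (count 10, total 15), which kept 347 miRNAs, with a term per mouse and the lung minus heart difference within each strain. P-values were adjusted by Benjamini-Hochberg over all 347, and calls needed an adjusted p under 0.05 and a log2 difference of at least 1.17 in size. edgeR 4.0.16 and DESeq2 1.42.0, other scalings, filters and subsets were alternatives, and the fit was tested on simulated data. Detection was compared by sign flips within mice. Annotation came from RefSeq and GENCODE.

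Lung and heart were paired by the mouse number in the labels. The correlation of same-mouse deviations from the group means had a median of 0.11 (-0.18 to 0.45) and was over 0.1 in 14 of 23 mice. The replicates are separate mice, and no 2 libraries agreed within sampling noise. Named miRNAs were the members of the lists, the 15 largest differences in each direction among those called in both strains with a mean of at least 10 RPM in the higher organ, the 10 most abundant of each organ and the 12 strain differences of smallest adjusted p. miR-206-3p, miR-103-3p and miR-107-3p were named after their values were seen. The members and lists were chosen with earlier results of these data known. Differences are limited by depth for miRNAs of a few counts.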

Additional observations from a re-analysis of the deposited data

Results flagged for a closer look

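In the 8 C3H mice, single libraries lay far from the rest of their group for 14 of 104 sets of values tested, by a gap over 0.526 of the group's range, a distance that chance gives about 1 time in 20. Of these, 7 were the heart of mouse 2075, all epithelial miRNAs at their highest: miR-141-3p at 278.5 RPM, miR-200a-3p at 539.7, miR-429-3p at 55.98, miR-200c-3p at 13.57, miR-200b-3p at 53.72, miR-34c-5p at 141.4 and miR-34b-5p at 44.11 RPM. Their lung levels were far above these, and without this mouse all 50 strain differences kept their sign and 37 of them stayed called. The heart of mouse 2085 was highest for miR-378a-3p (23607 RPM) and miR-378b (44.6 RPM), and that of 2076 for miR-201-3p (62.89 RPM). In lung, mouse 2088 was lowest for miR-200b-3p (868.7 RPM) and let-7a-5p (24780 RPM), mouse 2076 highest for miR-378a-3p (519.5 RPM) and mouse 2074 highest for let-7i-5p (36407 RPM).

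The lung minus heart difference differed between the strains (C57 minus C3H, log2, tested in the limma fit) for miR-204-5p by -3.12, miR-582-3p by 3.69, miR-499-5p by -2.23, miR-135a-5p by -3.05, miR-215-5p by 2.76, miR-582-5p by 3.64, miR-34c-5p by 1.65, let-7b-5p by -1.26, miR-503-3p by -1.26, let-7d-3p by -2.13, miR-467c-5p by -1.29 and miR-201-3p by 2.09. Strain cannot be told apart from month of collection.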

How the results depend on the processing

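Where a miRNA needed 10 counts or more in each of the 46 libraries, the numbers called fell to 52 on the mean of strains, 53 in C3H, 50 in C57, 15 for the strain difference and 39 in both strains, as fewer miRNAs were tested. With no fold minimum they were 281, 253, 251, 94 and 205. The strain difference was called for 30 miRNAs in letter B alone, 20 of the 351 tested in irradiated mice, 27 in C3H letter A with C57 males and 32 in C3H letter B with C57 females, against 50. The causes were not tested. Leaving out each mouse gave 148 to 155 on the mean, 162 to 172 in C3H, 146 to 154 in C57, 39 to 57 for the strain difference, 122 to 132 in both strains, and 29.0 to 34.4 for the difference in miRNAs detected. With no replicate block the pairing was ignored and the numbers were 151, 167, 153, 46 and 126. miR-376a-3p reversed in irradiated mice (0.071). Over 102 named or listed miRNAs, 3888 of the alternative values kept their side of the threshold on the mean, 116 lost it and 4 gained it; for 12 strain differences 447 kept it and 25 lost it. Depth limits miRNAs near 0 counts, such as miR-201-3p in lung.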
